A study of Mus musculus with 6 samples.

Results

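The transcripts of the integrated stress response and the unfolded protein response were followed in oocytes of the mouse at the germinal vesicle stage, when they are full-sized and still held in the first meiotic prophase. The genes were listed by name. The ATF4 arm held 21 genes: the transcription factor ATF4, genes it is known to activate, close partners and feedback genes of the response. The others were 11 chaperones and degradation factors of the endoplasmic reticulum (ER), 4 kinases of the translation initiation factor eIF2, and 3 genes of ER stress sensing. All 39 were among the 27179 gene identifiers counted, and 38 had enough reads to test; the one left untested was Nupr1, a small transcriptional regulator. Knockout oocytes carried a Prdm10 allele whose floxed exon 5 had been removed by a Cre recombinase driven from the Zp3 promoter, an oocyte promoter switched on during growth, so other cells of the mouse kept the gene. Wildtype oocytes were the controls, and whether they carried the floxed allele or the Cre is not given in the labels, nor are strain and age. Each genotype had 3 libraries, each from a pool of about 10 oocytes. The replicates are labelled biological, with no mention of which mice gave each pool, so the p-values reflect the variation among pools, which may be technical.

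In the integrated stress response, 4 kinases (PERK, GCN2, PKR and HRI) each sense a different stress and phosphorylate eIF2, which slows translation in general while the mRNA of Atf4 is translated more. ATF4 then switches on genes for amino acid supply and for feedback, among them Ddit3 (CHOP), Trib3 and Asns. In the unfolded protein response, misfolded protein in the ER activates PERK, IRE1 (the product of Ern1) and ATF6, and the last pair raise the ER chaperones and the machinery of ER-associated degradation. Because ATF4 is controlled mainly at translation and IRE1 acts by splicing Xbp1 mRNA, counts of reads per gene do not read the activity of either step.

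Both arms are known for short promoter elements, and the sequences below show where these letters stood in the members. Promoter windows of the 250 bases before the transcription start were taken from RefSeq (GRCm38.p6) for 36 of the 39 genes, with Ppp1r15b, Slc7a5 and Atf6 unmatched. A member was counted once if any of its windows held a match (22 windows for 19 ATF4-arm genes, 11 for 11 ER genes). The shares over all genes are per window, so the measures differ. The C/EBP-ATF response element, searched on both strands as TGATG and AA with 1 base of any kind between them, was found in 5 of 19 matched ATF4-arm genes (Asns, Atf3, Chac1, Nupr1 and Vldlr), in 1 of 11 ER genes (Herpud1), and in 3.452% of 32851 windows of all genes. The ER stress element, searched on both strands as CCAAT and CCACG with 9 bases of any kind between them, was found in 5 of 11 ER genes (Calr, Canx, Hsp90b1, Hspa5 and Pdia6), in 0 of 19 ATF4-arm genes, and in 0.113% of all windows. A second form of it, ATTGG and CCACG with 1 base between them on either strand, was found in Herpud1 alone among the members and in 0.03% of all windows. No match of one element overlapped a match of another, and a match is a description of letters, not evidence of binding. The windows of Asns and Vldlr, both of which rose in knockout oocytes, and of Hspa5, the central ER chaperone, are shown whole, from 5′ to 3′ on the gene's strand, with the matched letters in capitals. Vldlr has 2 start sites in that table: the window shown lies before the downstream one, within the gene's annotated span, and the window before the upstream one holds none of these elements. Ddit3, which also rose in knockout oocytes, has none of these elements in its window. Chac1 and Atf3, which hold the C/EBP-ATF element, had negative log2 fold changes that did not pass the test, and Nupr1 was not tested.
Asns (chr6:7693210-7693459, minus strand): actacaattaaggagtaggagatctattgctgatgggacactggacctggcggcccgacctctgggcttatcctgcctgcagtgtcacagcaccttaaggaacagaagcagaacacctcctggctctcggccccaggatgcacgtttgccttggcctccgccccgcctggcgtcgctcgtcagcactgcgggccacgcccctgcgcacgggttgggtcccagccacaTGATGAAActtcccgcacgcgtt
Vldlr (chr19:27216770-27217019, plus strand): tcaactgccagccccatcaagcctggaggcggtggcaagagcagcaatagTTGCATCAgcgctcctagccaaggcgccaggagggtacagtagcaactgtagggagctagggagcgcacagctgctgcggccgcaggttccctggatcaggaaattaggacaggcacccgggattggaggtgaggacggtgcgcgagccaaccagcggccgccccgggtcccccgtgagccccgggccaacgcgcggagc
Hspa5 (chr2:34771840-34772089, plus strand): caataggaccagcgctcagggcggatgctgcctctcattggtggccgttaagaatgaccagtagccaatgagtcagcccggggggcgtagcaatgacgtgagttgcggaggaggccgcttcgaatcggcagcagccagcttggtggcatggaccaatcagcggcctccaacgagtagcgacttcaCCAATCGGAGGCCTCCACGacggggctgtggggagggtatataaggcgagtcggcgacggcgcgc

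The other matches are shown with up to 20 bases on either side, since they mark the genes whose levels are compared below. The C/EBP-ATF element stood in Chac1, Atf3 and Nupr1, and Herpud1 held it together with the second ER stress element.
Chac1 (chr2:119351029-119351076, plus strand): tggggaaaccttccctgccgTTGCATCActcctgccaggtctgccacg
Atf3 (chr1:191183416-191183463, minus strand): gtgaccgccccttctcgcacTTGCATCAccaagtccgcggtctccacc
Nupr1 (chr7:126625553-126625600, minus strand): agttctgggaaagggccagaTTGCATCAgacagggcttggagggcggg
Herpud1 (chr8:94386297-94386344, plus strand): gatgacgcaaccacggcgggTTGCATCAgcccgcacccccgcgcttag
Herpud1 (chr8:94386357-94386407, plus strand): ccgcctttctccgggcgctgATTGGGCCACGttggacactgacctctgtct
The ER stress element stood once each in Calr, Canx and Pdia6, and at 2 places in Hsp90b1.
Calr (chr8:84847055-84847113, minus strand): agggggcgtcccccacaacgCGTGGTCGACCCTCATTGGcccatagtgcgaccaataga
Canx (chr11:50325780-50325838, minus strand): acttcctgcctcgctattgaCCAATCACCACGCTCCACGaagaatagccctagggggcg
Pdia6 (chr12:17266471-17266529, plus strand): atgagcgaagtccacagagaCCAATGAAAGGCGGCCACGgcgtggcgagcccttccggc
Hsp90b1 (chr10:86705513-86705571, minus strand): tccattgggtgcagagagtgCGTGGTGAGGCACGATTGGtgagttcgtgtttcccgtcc
Hsp90b1 (chr10:86705618-86705676, minus strand): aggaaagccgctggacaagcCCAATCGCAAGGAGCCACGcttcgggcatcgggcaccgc

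Total counts per library ranged from 22492228 to 38831227. Prdm10 itself was at 2.80, 3.82 and 3.05 CPM (the read count scaled to library size) in the knockout and 10.4, 23.1 and 23.0 CPM in the wildtype libraries, so each library lay on the side its label gives. Wildtype replicate 1 stood apart from wildtype replicates 2 and 3 (Spearman correlation across genes 0.976 and 0.975, against 0.996 between those 2), so results are given with and without it. Of 12 oocyte markers the summed level was 32550 to 35850 CPM in knockout and 25450 to 32840 CPM in wildtype libraries; one of them fell in the knockout, Mos, a kinase of oocyte maturation (log2 -0.62, adjusted p = 0.0274, edgeR). For 18 granulosa and cumulus cell markers the sums were 87.6 to 112 and 94.1 to 110 CPM, with Ptx3 at 0 in every library and Ptgs2 higher in the knockout (log2 fold change 1.47). For 9 theca and stroma markers the sums were 3.89 to 6.70 and 3.07 to 7.23 CPM. For 9 markers of blood, immune and endothelial cells they were 117 to 121 and 36.7 to 82.4 CPM, mostly Pecam1 (103 to 105 and 30.4 to 75.7 CPM). Of these 9 markers 6 were under 1 CPM in every library, with Hba-a1 and Cdh5 at 0 everywhere. Kdr was at 3.18 to 4.30 CPM in knockout and 2.19 to 4.89 CPM in wildtype libraries. Cd68, which encodes a lysosomal protein of macrophages, rose (log2 2.28). Summed immediate early and heat shock genes, 14 in number, stood at 1209 to 1292 CPM in knockout and 1156 to 1173 CPM in wildtype libraries. The part of these lists in the results below was not tested.

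Loss of maternal Prdm10 came with higher transcript levels of Ddit3, Asns and Vldlr, all in the ATF4 arm, while Atf4 itself and the ER chaperones did not pass the test. The calls of Ddit3 and Asns were lost in most fits that left out a single library. Of the 38 tested members, 3 rose, 0 fell and 35 did not pass (edgeR quasi-likelihood test, adjusted p under 0.05 over all genes). That share, 7.89%, lay below the 11.2% of all 14957 tested genes that were called, of which 5.87% were higher and 5.34% lower. By arm it was 15% in the ATF4 arm (3 of 20 tested genes) and 0 of 11 in the ER arm. At an unadjusted p under 0.05, 9 members were higher and 1 was lower (26.3%), where all genes gave 28.8%, 14.2% higher and 14.6% lower. DESeq2 called 6 members higher and 0 lower, where it called 17.9% of all genes (8.89% higher and 8.97% lower). The count was 3 and 0 with limma-voom (11.1% of all genes, 6.01% higher and 5.11% lower). It was 10 and 6 with limma-voom and sample quality weights (39.7% of all genes, 19.5% higher and 20.3% lower). Without wildtype replicate 1, 9 members rose and 5 fell, a share of 36.8% where 34.4% of all genes were called (16.7% higher and 17.7% lower). The number of risers was 0 without knockout replicate 1, 1 without knockout replicate 2, 1 without knockout replicate 3, 2 without wildtype replicate 2 and 1 without wildtype replicate 3, with 0 lower in each of these. Those fits called 2.48%, 2.35%, 2.64%, 5.90% and 6.02% of all genes, in the same order. In bulk RNA from pooled oocytes, a change in every oocyte and a change in some of them cannot be told apart.

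Over the 38 tested members the median log2 fold change was 0.21, with 27 above and 11 below 0. It was 0.06 without wildtype replicate 1. The ATF4 arm had a median log2 fold change of 0.06 over 20 tested genes, 11 above and 9 below 0, and the ER arm 0.18 over 11 genes, 9 above and 2 below. The 4 kinases (median 0.29) and the 3 sensor genes (median 0.37) all lay above 0. All tested genes had a median of 0.00, with 7437 above and 7520 below 0. Without wildtype replicate 1 the medians of the ATF4 and ER arms were 0.07 and 0.05, beside 0.01 over all genes. Those of the kinases and of the sensor genes were then 0.25 each. The libraries of the 2 genotypes did not overlap for 16 of 38 members (42.1%), 13 with the knockout above and 3 with it below, where 40.2% of all tested genes showed the same (21.0% above and 19.2% below).

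**Figure D1:**
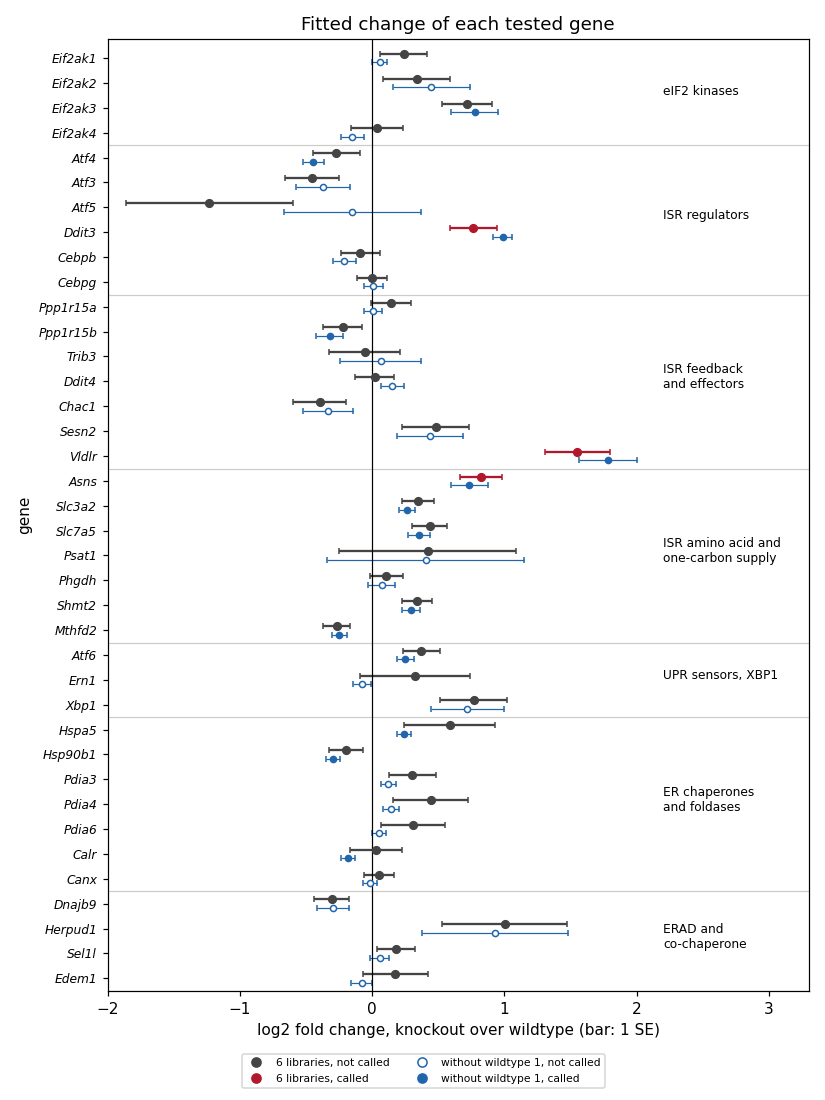
Fitted log2 fold change of each tested gene (x axis, knockout over wildtype, bars 1 SE) by role, from all 6 libraries (dark or red) and without wildtype replicate 1 (blue, filled where called). Ddit3, Vldlr and Asns are the 3 red points, and without wildtype replicate 1 the called genes lie on both sides of 0.

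Among the regulators of the ATF4 arm, Ddit3 was the one that passed. Ddit3 encodes CHOP, a transcription factor that ATF4 induces and that promotes cell death under lasting stress (Entrez 13198, chromosome 10, 127290793 to 127296291). It measured 77.8, 77.3 and 80.2 CPM in the knockout libraries and 59.1, 38.7 and 40.4 CPM in the wildtype libraries. All knockout libraries were above all wildtype libraries, and wildtype replicate 1 was the highest of the wildtype libraries. The means were 78.4 ± 1.5 and 46.1 ± 11.3 CPM (SD, n = 3 each), a 1.70-fold rise (log2 0.77, SE 0.176, adjusted p = 0.0329, edgeR). Leaving out wildtype replicate 1 raised the log2 value to 0.99 (adjusted p = 2.8e-06, edgeR). Leaving out any other single library gave 0.65 to 0.78 with an adjusted p of 0.0845 to 0.147 (edgeR), so the call was lost. It was also lost with scaling to library totals (0.0613), upper quartile scaling (0.0521) and a filter of 5 CPM (0.0678), and with the replicate number as a block in the model. The gene's span overlaps those of Mbd6 (log2 -0.63, adjusted p = 0.386, edgeR) and Mars1 (log2 0.46, adjusted p = 0.257, edgeR), so some reads could be shared.

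Atf4, the hub of the response (chromosome 15, 80255184 to 80257545), pointed the other way at the level of mRNA. It measured 68.4, 72.6 and 81.2 CPM in knockout and 66.7, 99.7 and 102 CPM in wildtype libraries. Wildtype replicate 1 was the lowest of the 6, so the groups overlapped (log2 -0.27, SE 0.18, adjusted p = 0.352, edgeR). Atf4 fell when that library was left out (log2 -0.45, adjusted p = 0.00126, edgeR). Atf3, a repressor induced by ATF4, was scarce, at 2.42 to 3.23 CPM in knockout and 3.20 to 4.15 CPM in wildtype libraries (log2 -0.46, adjusted p = 0.185, edgeR). Atf5, an ATF4-related factor of mitochondrial stress, stood at 0.185 to 0.472 CPM in knockout libraries, and in the wildtype at 1.51 CPM in replicate 1 and 0.308 and 0.457 CPM in the others. Its log2 fold change of -1.23 became -0.15 without wildtype replicate 1 and passed in neither fit. Cebpg, a bZIP partner of ATF4, lay at 99.1 to 112 CPM in knockout and 104 to 110 CPM in wildtype libraries, and Cebpb, a C/EBP factor translated in alternative forms, had a log2 fold change of -0.09. Nupr1 had 16 reads in wildtype replicate 1, 0 and 3 in the other wildtype libraries and 4 to 9 in the knockout libraries, too few to test.

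Among feedback and effector genes, Vldlr rose and the classical readouts Trib3 and Chac1 did not. Vldlr encodes the very low density lipoprotein receptor, which takes up lipoproteins (Entrez 22359, chromosome 19, 27216480 to 27254231). Its levels were 6.45, 4.54 and 5.22 CPM in knockout and 2.33, 1.69 and 1.42 CPM in wildtype libraries. Each knockout library was well above each wildtype library, on 31 to 97 reads in the wildtype. The rise was 2.93-fold, from 1.81 ± 0.467 to 5.40 ± 0.970 CPM (SD, n = 3 each; log2 1.55, SE 0.246, adjusted p = 0.00978, edgeR). It stayed called on omission of any single library except knockout replicate 1 (log2 1.41, adjusted p = 0.0534, edgeR), and it did not reach a filter of 5 CPM in 3 libraries.

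Trib3, a pseudokinase that restrains ATF4 and CHOP signalling, was at 1.36, 0.855 and 1.09 CPM in knockout and 1.30, 1.0 and 1.10 CPM in wildtype libraries. The groups lay on top of each other (log2 -0.06, SE 0.269, adjusted p = 0.91, edgeR). Chac1, an enzyme that breaks down glutathione and a sensitive ATF4 target, was at 3.83, 2.94 and 4.34 CPM in knockout and 5.28, 4.58 and 4.76 CPM in wildtype libraries. Every knockout library was below every wildtype library, yet the difference did not pass (log2 -0.40, SE 0.197, adjusted p = 0.227, edgeR). Ppp1r15a encodes GADD34, the stress-induced subunit that directs a phosphatase to eIF2. It was at 98.7, 103 and 91.8 CPM in knockout and 71.2, 101 and 94.3 CPM in wildtype libraries, which overlap (log2 0.14, adjusted p = 0.56, edgeR). Ppp1r15b, the constitutive counterpart, was lower by a fitted log2 value of -0.22 that did not pass (adjusted p = 0.349, edgeR); when wildtype replicate 1 was left out it fell (log2 -0.32, adjusted p = 0.0315, edgeR). Ddit4 (REDD1), which inhibits mTORC1, had 0.02 on that scale, and Sesn2, another mTORC1 inhibitor, 0.48 (adjusted p = 0.258, edgeR).

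**Figure D2:**
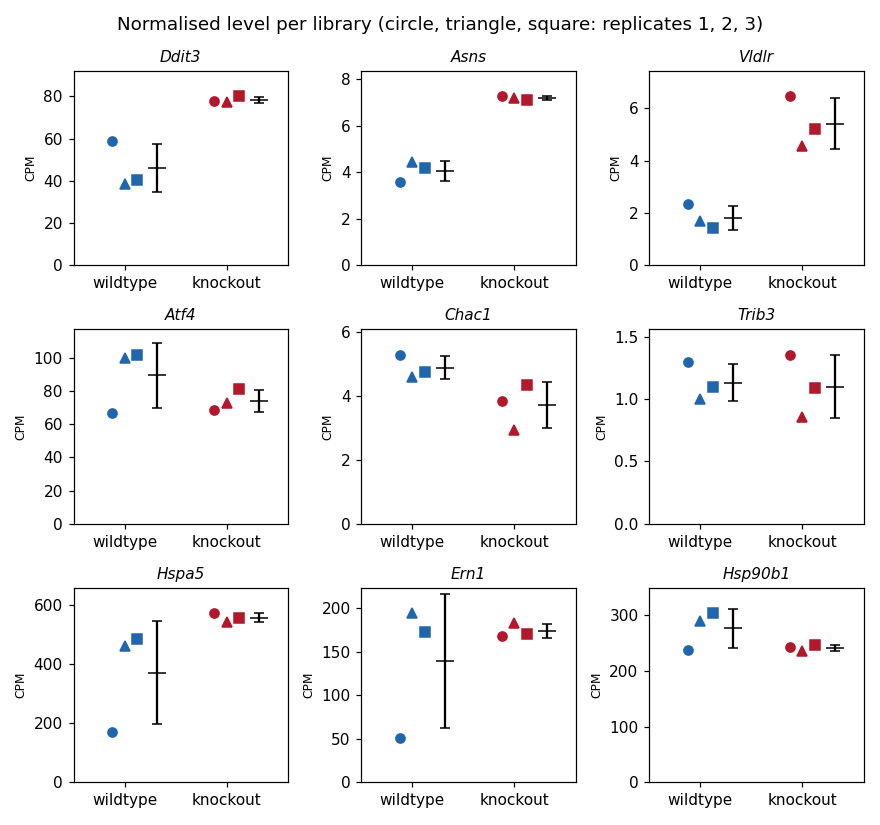
CPM (y axis, linear from 0) of 9 genes in each library, wildtype blue and knockout red, with the mean and SD in black. Ddit3, Asns, Vldlr and Hspa5 (knockout above) and Chac1 (knockout below) are separated by genotype, and Atf4, Trib3, Ern1 and Hsp90b1 are not. Wildtype replicate 1 (circle) is the low point for Hspa5 (170 CPM) and Ern1 (50.9 CPM).

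In amino acid and one-carbon supply, the side of the ATF4 arm that feeds protein synthesis, 1 of 7 genes passed (14.29%, against 11.2% of all genes). Asns encodes asparagine synthetase, a standard readout of amino acid limitation (Entrez 27053, chromosome 6, 7675165 to 7693209). It stood at 7.28, 7.19 and 7.13 CPM in knockout and 3.60, 4.43 and 4.21 CPM in wildtype libraries. The knockout libraries were within a narrow band above all wildtype libraries. The rise was 1.77-fold, from 4.08 ± 0.429 to 7.20 ± 0.0776 CPM (SD, n = 3 each; log2 0.82, SE 0.158, adjusted p = 0.0186, edgeR). It was 0.73 on the log2 scale when wildtype replicate 1 was omitted (adjusted p = 0.00233, edgeR). The call was lost without knockout replicates 1, 2 and 3 in turn (adjusted p = 0.0862, 0.1 and 0.0887, edgeR) and without wildtype replicate 3 (0.051), with log2 fold changes of 0.80 to 0.85. It was also lost with the replicate number as a block in the model.

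Of the transporter pair and the mitochondrial one-carbon enzymes, Mthfd2 alone had a negative log2 fold change, and none passed with all 6 libraries. Slc3a2, the heavy chain of the large neutral amino acid transporter, was at 259 to 275 CPM in knockout and 186 to 232 CPM in wildtype libraries, and Slc7a5, its light chain LAT1, at 60.0 to 70.3 and 43.2 to 52.3 CPM. Both were above the wildtype in every knockout library and missed the threshold (log2 0.35 and 0.43, adjusted p = 0.11 and 0.0729, edgeR). Shmt2, mitochondrial serine hydroxymethyltransferase, had the same pattern, at 77.3 to 82.4 against 59.5 to 67.5 CPM (log2 0.34, adjusted p = 0.0912, edgeR). Mthfd2, the next enzyme of that mitochondrial pathway, lay the other way, at 188 to 200 against 228 to 240 CPM (log2 -0.27, adjusted p = 0.136, edgeR). With wildtype replicate 1 omitted, Slc3a2, Slc7a5 and Shmt2 rose (log2 0.26, 0.35 and 0.29) and Mthfd2 fell (log2 -0.25), with adjusted p between 0.00552 and 0.00728 (edgeR). Together with Asns this made 5 of the 7 genes, in a fit that called 34.4% of all genes. The serine synthesis enzymes Phgdh (log2 0.11) and Psat1 (log2 0.42) did not pass in either fit, and Psat1 rested on 4 to 27 reads per library.

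The 4 eIF2 kinases were present at very different levels, compared here as CPM per kilobase of the longest annotated transcript. Eif2ak1 (HRI, the kinase of haem shortage and mitochondrial stress) had 73.5 in wildtype and 86.7 in knockout oocytes. Eif2ak4 (GCN2, which senses uncharged tRNA) had 14.5 and 14.9, Eif2ak3 (PERK, the ER sensor) 1.21 and 1.99, and Eif2ak2 (PKR, the sensor of double-stranded RNA) 0.251 and 0.319. This order, HRI, GCN2, PERK, PKR, held in each of the 6 libraries without overlap. On the CPM scale Eif2ak1 was at 358, 395 and 371 in knockout and 233, 360 and 361 in wildtype libraries, with wildtype replicate 1 lowest (log2 0.24, adjusted p = 0.415, edgeR). Eif2ak4 was at 85.1, 75.7 and 75.5 CPM in knockout and 55.6, 95.2 and 79.6 CPM in wildtype libraries, the widest spread being within the wildtype (log2 0.04, adjusted p = 0.919, edgeR).

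Eif2ak3 came closest to a call among the kinases. It measured 10.8, 8.18 and 7.97 CPM in knockout and 5.84, 4.58 and 5.95 CPM in wildtype libraries. All knockout libraries were above the wildtype, knockout replicate 1 most of all (log2 0.72, SE 0.191, adjusted p = 0.0506, edgeR). It rose when wildtype replicate 1 was omitted (log2 0.77, adjusted p = 0.00687, edgeR), and DESeq2 also called it (adjusted p = 0.011). Eif2ak2 was at 1.39, 1.12 and 1.62 CPM in knockout and 1.22, 0.924 and 1.10 CPM in wildtype libraries, which overlap (log2 0.33, adjusted p = 0.413, edgeR). Of the 4 kinases 0 passed in edgeR, 1 had an unadjusted p under 0.05 (28.8% of all genes), and DESeq2, limma-voom and limma-voom with quality weights called 1, 0 and 1 (17.9%, 11.1% and 39.7% of all genes).

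**Figure D3:**
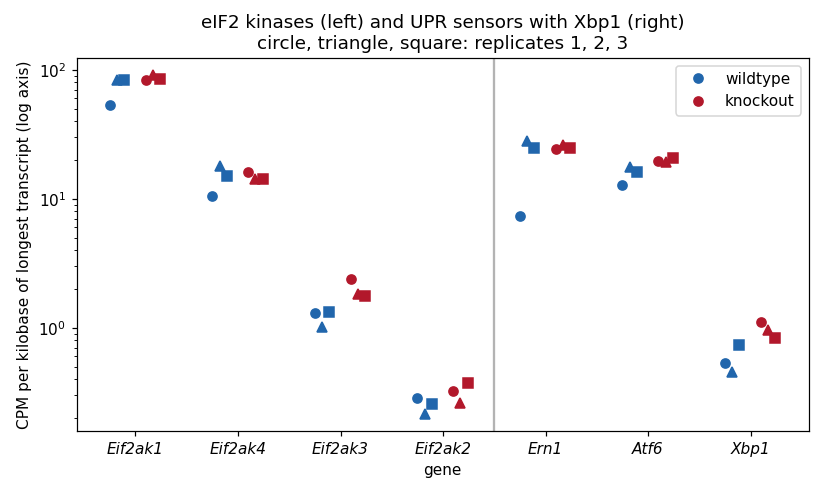
CPM per kilobase of the longest transcript (y axis, log scale) of the eIF2 kinases and of Ern1, Atf6 and Xbp1 in each library, wildtype blue and knockout red. Eif2ak1 lies far above the other kinases, and Xbp1 far below Ern1 and Atf6, in every library.

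Of the ER sensors other than PERK, both IRE1 and ATF6 were well expressed while Xbp1, the transcript that IRE1 splices, was scarce. Ern1 was at 168, 183 and 171 CPM in knockout and 50.9, 194 and 172 CPM in wildtype libraries. Wildtype replicate 1 was far below the rest, and the other wildtype libraries lay among or above the knockout libraries (log2 0.32, SE 0.416, adjusted p = 0.634, edgeR); without that library the log2 fold change was -0.08. Atf6 was at 143, 141 and 151 CPM in knockout and 92.9, 127 and 116 CPM in wildtype libraries. Every knockout library was above every wildtype library (log2 0.37, adjusted p = 0.129, edgeR), and without wildtype replicate 1 Atf6 rose (log2 0.25, adjusted p = 0.0121, edgeR). Xbp1 was at 2.36, 2.03 and 1.77 CPM in knockout and 1.13, 0.963 and 1.56 CPM in wildtype libraries, apart but on few reads (log2 0.77, SE 0.256, adjusted p = 0.0951, edgeR). Per kilobase the wildtype levels were 20.04 for Ern1, 15.5 for Atf6 and 0.571 for Xbp1, though Ern1 lay below Atf6 in wildtype replicate 1. Of these 3 genes 0 passed in edgeR and 2 had an unadjusted p under 0.05, a cut that 28.8% of all genes met. DESeq2 and limma-voom called 0 each, and limma-voom with quality weights called 2, in a fit that called 39.7% of all genes.

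The ER chaperones were among the most abundant members. Per kilobase, wildtype oocytes had 161 CPM of Pdia6, 123 of Calr and 101 of Hspa5, then 85.8 of Hsp90b1, 76.7 of Pdia4, 73.2 of Pdia3 and 72.6 of Canx. Of the 11 ER chaperone and degradation genes 0 passed in edgeR and 0 had an unadjusted p under 0.05 in either direction, against 28.8% of all genes. DESeq2 and limma-voom also called 0 (17.9% and 11.1% of all genes), and limma-voom with quality weights called 1 higher and 3 lower (39.7% of all genes). Without wildtype replicate 1, Hspa5 rose and Hsp90b1 and Calr fell (27.3%, against 34.4% of all genes); omitting any other single library left 0 called.

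Hspa5 encodes BiP, the ER chaperone that holds the stress sensors inactive (chromosome 2, 34772090 to 34776529). It stood at 573, 543 and 556 CPM in knockout and 170, 460 and 484 CPM in wildtype libraries. The knockout libraries were above all wildtype libraries, and wildtype replicate 1 was far below the rest (log2 0.59, SE 0.344, adjusted p = 0.299, edgeR). Omitting that library made the rise smaller, and it then passed the test (log2 0.24, SE 0.054, adjusted p = 0.00593, edgeR). Hsp90b1 encodes GRP94, the ER form of HSP90, and stood at 242, 236 and 246 CPM in knockout and 237, 289 and 304 CPM in wildtype libraries. Here wildtype replicate 1 fell among the knockout libraries (log2 -0.20, adjusted p = 0.346, edgeR), and without it Hsp90b1 fell (log2 -0.30, adjusted p = 0.00185, edgeR). Calr, a calcium-binding lectin chaperone, moved from 0.03 on the log2 scale (adjusted p = 0.94, edgeR) to -0.18 without that library (adjusted p = 0.0223, edgeR). Hspa5, Hsp90b1 and Calr all hold the ER stress element shown above, as do Pdia6 and Canx, whose log2 fold changes without that library were 0.05 and -0.02.

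The disulfide isomerases Pdia3, Pdia4 and Pdia6, which form and shuffle disulfide bonds in new proteins, repeated the shape of Hspa5. Their knockout libraries lay at 241 to 259, 241 to 263 and 426 to 445 CPM, and wildtype replicate 1 lay at 149, 99.9 and 215 CPM. Wildtype replicates 2 and 3 were at 227 and 233, 233 and 219, and 422 and 415 CPM, just under the knockout libraries. Log2 fold changes of 0.30, 0.44 and 0.31 became 0.12, 0.14 and 0.05 without wildtype replicate 1, and none of these passed. Canx, the membrane-bound lectin chaperone, had 0.05 and then -0.02.

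Among co-chaperone and degradation genes, Dnajb9 was lower in every knockout library. It encodes ERdj4, an IRE1-XBP1 target that assists BiP, and was at 7.78, 7.61 and 8.16 CPM in knockout and 9.85, 9.71 and 9.56 CPM in wildtype libraries. The wildtype libraries agreed closely with one another, replicate 1 included (log2 -0.31, SE 0.133, adjusted p = 0.175, edgeR). Sel1l and Edem1, which recognise and pass on misfolded glycoproteins for degradation, had log2 fold changes of 0.18 and 0.18, and of 0.06 and -0.08 without wildtype replicate 1. Herpud1, a membrane component of the degradation complex and a strong stress target elsewhere, had 3 to 10 reads in wildtype and 14 to 26 in knockout libraries (log2 1.0, SE 0.471, adjusted p = 0.205, edgeR), too few to place it.

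**Figure D4:**
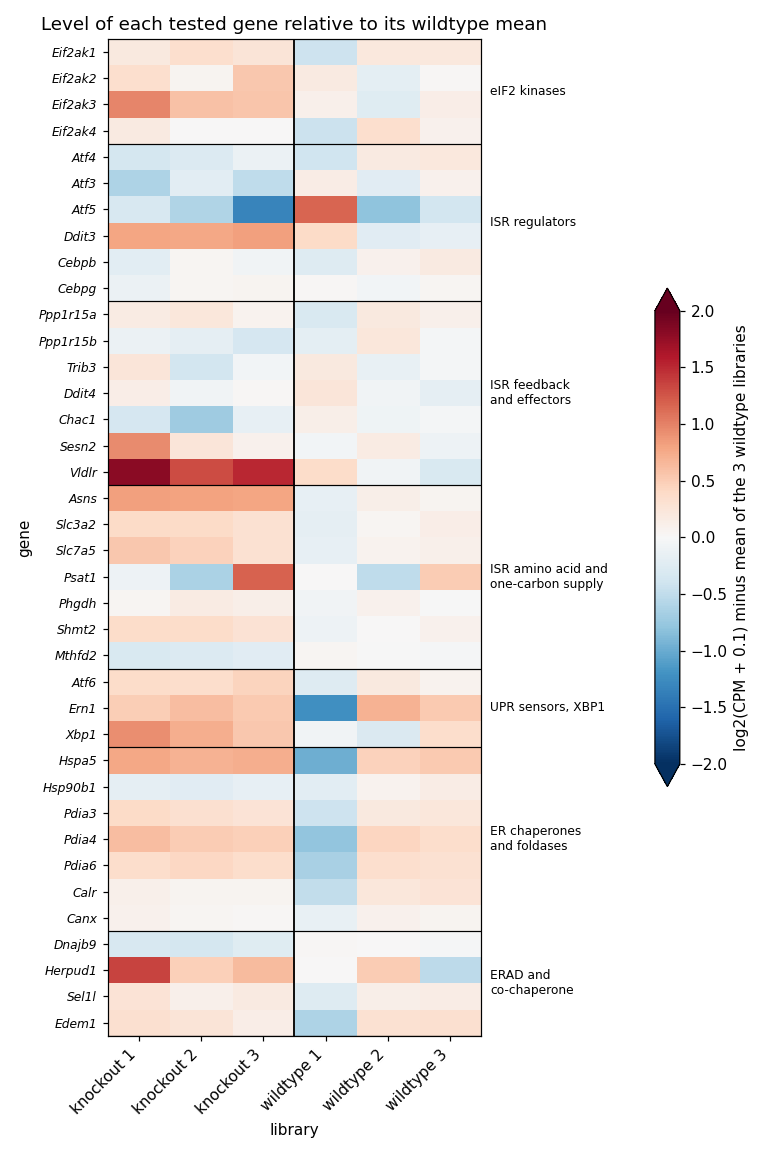
Each tested gene's log2(CPM + 0.1) in each library minus its mean over the 3 wildtype libraries (colour), genes grouped by role. Wildtype replicate 1 is the bluest wildtype column over most ER chaperones, and Ddit3, Vldlr and Asns are red in all 3 knockout columns.

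Wildtype replicate 1 lay below both other wildtype libraries for 9 of the 11 ER genes (81.8%), against 9 of 20 genes of the ATF4 arm (45%) and 43.9% of all tested genes. Its median distance from the mean of those 2 libraries was -0.63 on the log2 scale for the ER arm, -0.08 for the ATF4 arm and 0.00 over all genes. It was lower by over 0.5 for 54.5% of the ER arm, 5% of the ATF4 arm and 21.9% of all genes, so the shift was not confined to ER genes. Outside the members, Iars, a tRNA synthetase gene, was low in it (231 against 368 and 406 CPM). Slc7a11 was not (277 against 242 and 241 CPM). The ER genes that departed from the wildtype mean most in that library were Hspa5 (log2 -1.48 against wildtype replicates 2 and 3), Pdia4 (-1.18), Pdia6 (-0.96) and Edem1 (-0.94), and Ern1 among the sensors (-1.85). Dnajb9 (0.03) and Herpud1 (-0.09) did not share it. As a median over the arm's genes, knockout replicates 1 to 3 stood at 0.32, 0.26 and 0.19 above the wildtype mean, wildtype replicates 2 and 3 at 0.23 each, and wildtype replicate 1 at -0.42. For the ATF4 arm the 6 medians lay between -0.02 and 0.09.

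Other genes of the same pathways, listed apart from the members, gave calls in both directions. Of 33 tested of 37 further ATF4 pathway genes, 2 rose and 1 fell (9.09%, against 11.2% of all genes). Stc2, a secreted stanniocalcin induced by ER stress, rose from 0.696, 0.770 and 1.56 CPM in wildtype to 4.36, 4.35 and 4.34 CPM in knockout libraries (log2 2.15, SE 0.308, adjusted p = 0.00643, edgeR). Xpot, the nuclear exporter of tRNA, rose from 1.63, 0.963 and 1.83 to 5.78, 3.61 and 2.57 CPM (log2 1.43, adjusted p = 0.0437, edgeR). Slc7a11, the cystine transporter, fell from 277, 242 and 241 to 164, 164 and 178 CPM (log2 -0.58, adjusted p = 0.0206, edgeR). In each of these 3 the genotypes did not overlap. Omission of wildtype replicate 1 gave 8 higher and 4 lower (36.4%, against 34.4% of all genes). Without knockout replicate 1, 2 or 3 or wildtype replicate 3, 1 rose and 0 fell, and without wildtype replicate 2, 2 and 0.

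Of 15 genes of eIF2, its exchange factor eIF2B and their regulators, Cdc123, the factor that assembles eIF2, rose from 43.8 to 48.7 CPM in wildtype to 66.0 to 71.0 CPM in knockout libraries (log2 0.53, SE 0.113, adjusted p = 0.026, edgeR). The other 14 did not pass (6.67% called, against 11.2% of all genes). Omission of wildtype replicate 1 gave 3 higher and 2 lower (33.3%, against 34.4% of all genes), and omission of any other single library gave 0.

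Of 52 further genes of ER folding and degradation, 4 rose and 1 fell (9.62%, against 11.2% of all genes). Those that rose were Wfs1, an ER membrane protein of calcium balance (log2 0.68), Sil1, the nucleotide exchange factor of BiP (log2 0.68), Derl1, a channel component of ER-associated degradation (log2 0.61), and Creb3, an ER-anchored transcription factor (log2 0.55). Sil1 was at 140 to 143 CPM in knockout and 82.3 to 93.3 CPM in wildtype libraries (adjusted p = 0.0104, edgeR). Ppib, the ER cyclophilin, fell (log2 -0.48, adjusted p = 0.0489, edgeR). The median over the 52 was 0.08. Omission of wildtype replicate 1 gave 11 higher and 10 lower (40.4%, against 34.4% of all genes), that of wildtype replicate 2 or 3 gave 1 and 0, and that of any knockout library 0 and 0.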

How the data were processed

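RNA was measured in 6 libraries of pooled germinal vesicle oocytes, 3 knockout and 3 wildtype. The authors deposited counts of reads per Entrez gene, 1 table per library. STAR 2.7.11a and featureCounts 2.0.3 were used on GRCm38.p6, per the submitters' processing notes; no source used here gives the annotation, the strand setting or the treatment of multi-mapped reads, so overlapping genes may share reads. Of 27179 identifiers, 25275 were named from a RefSeq table of the same assembly. Genes were kept with filterByExpr at its defaults (minimum count 10), scaled by TMM and tested with the edgeR 4.0.16 quasi-likelihood test (R 4.3.3, 14957 genes, Benjamini-Hochberg, adjusted p under 0.05). The test was run on simulated counts that held no outlying library, so that check does not cover a library like wildtype replicate 1. Standard errors are the absolute log2 fold change over the square root of F. CPM uses the TMM-scaled library sizes; 1 read was worth 0.024 to 0.0457 CPM, so values near 1 CPM hold few reads. Transcript lengths were the longest in GENCODE M21. Alternatives included DESeq2 1.42.0 and limma 3.58.1.

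The members and lists were chosen with earlier results of these data known, so no list was tested as a set. Values per library are given for Prdm10, called members and a fixed set of hub genes, and from the further pathway lists for up to 4 called genes a direction. None of the 15 pairs of libraries agreed within sampling noise.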

Additional observations from a re-analysis of the deposited data

How the results depend on the processing

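The direction of Ddit3, Asns and Vldlr was the same in the 15 alternatives wherever they were tested, and their calls depended on the setting. Calr, near 0 with all libraries, ran from -0.181 without wildtype replicate 1 to 0.157 without wildtype replicate 3 and turned to -0.175 (adjusted p = 0.0472) with limma-voom quality weights. Samples with the same replicate number showed no sign of pairing (correlation of deviations 0.01, -0.06 and -0.09). This does not exclude a pairing, because wildtype replicate 1 stands apart and may dominate the wildtype deviations. With the replicate block 327 genes were higher and 210 lower, against 878 and 798. The members gave 1 and 0, in the ATF4 arm, with Vldlr called and Ddit3 and Asns not (adjusted p = 0.0734 each, edgeR). Further ATF4 genes gave 1 and 0, eIF2 genes 0 and further ER genes 0 and 0. With DESeq2 the counts were 1329 and 1342 over all genes, with 6 higher members (5 in the ATF4 arm and 1 kinase) and 0 lower. DESeq2 also called 6 higher and 2 lower further ATF4 genes, 3 higher and 0 lower eIF2 genes, and 5 higher and 2 lower further ER genes. With limma-voom 1 further ATF4 gene was higher and 1 was lower. With quality weights the counts were 2914 and 3029 over all genes, 10 and 6 members, 6 and 3 in the ATF4 arm, 1 and 3 in the ER arm, 1 higher kinase, 2 higher sensor genes, 10 and 4 further ATF4 genes, 3 and 3 eIF2 genes and 11 and 10 further ER genes, and the median was 0.04 in the ER arm and 0.081 over the members. The filter of 5 CPM gave 513 and 525 genes, 1 higher member, in the ATF4 arm, and 0 higher further ATF4 genes. Library totals gave 2 higher eIF2 genes and 0 lower further ER genes, as upper quartile scaling did, and no filter 0 of the latter. The higher further ER genes numbered 3 with library totals.

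Leaving out 1 library each gave 216 to 2526 genes higher and 141 to 2673 lower. Higher counts ran over 0 to 9 members, 0 to 6 in the ATF4 arm, 0 to 1 in the ER arm, kinases and sensors, 1 to 8 further ATF4 genes, 0 to 3 eIF2 genes and 0 to 11 further ER genes. Lower counts ran over 0 to 5, 0 to 3, 0 to 2 (ER arm), 0 to 4, 0 to 2 and 0 to 10. Medians ran from 0.059 to 0.323 over members, -0.028 to 0.098 in the ATF4 arm and 0.05 to 0.32 in the ER arm. In the fits without wildtype replicate 1 the spread rests on 5 libraries. Herpud1, Psat1, Nupr1 and Atf5 are limited by depth.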
